A study of Mus musculus with 11 samples.

Results

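Protocadherins are the largest group of adhesion molecules in the cadherin superfamily, and their promoters were examined here for reads of the transcription factor ST18, a zinc finger protein of the MYT1 family. The members were all promoter windows whose gene symbol starts with Pcdh, which gave 71 of the 21881 windows in the deposited table. They comprised 59 clustered members (15 Pcdha, 22 Pcdhb and 22 Pcdhg), all on mouse chromosome 18, and 12 non-clustered ones, whose symbol has a number after Pcdh. The values were read counts in windows of 1000 bp for chromatin immunoprecipitation (ChIP) with an antibody to the HA tag, given in a column named ST18, and for input genomic DNA, both from mouse cells that the labels call TN and describe as brain cells used for ChIP in vitro. The labels name 2 ChIP samples and 1 input sample, and the table has 1 column for each kind, so no value had a replicate. The molecule label of the input sample names the HA ChIP, but the sample is treated as input here, after its title and description. RNA samples of the series, 4 with ST18 knocked down and 4 controls, were not used here. No RNA levels of these genes entered the results, so the identity of the cells could not be checked against marker genes.

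The clustered protocadherins lie in tandem as the alpha, beta and gamma clusters. Each variable exon of a cluster has a promoter of its own, and single neurons use different combinations of these promoters, which gives a neuron a surface identity used in self-avoidance of its branches and in synapse formation. In the alpha and gamma clusters a variable exon is spliced to constant exons, while beta genes have a single exon that encodes the whole protein. CTCF and cohesin are known to loop an enhancer to the chosen alpha promoter. The last isoforms of the alpha and gamma clusters, called C-type, are used more broadly across neurons than the others. Non-clustered protocadherins are separate genes outside the clusters, most of them in the delta-1 and delta-2 subfamilies, with roles in sorting of cells and guidance of axons.

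Upstream sequence was at hand for 9 of the 12 non-clustered members and for no clustered one. Those shown belong to the pair with the highest and the pair with the lowest ST18 enrichment among these 9, given here from highest to lowest as the 250 bases before the annotated start (RefSeq, GRCm38.p6). Capitals mark AAGTT or its reverse complement AACTT, the core of the DNA motif known for zinc fingers of the MYT1 family. The coordinates are chr10:73821617-73821866 on the plus strand for Pcdh15, chr5:57717831-57718080 on the plus strand for Pcdh7, chr3:49757317-49757566 on the minus strand for Pcdh18 and chr14:93890680-93890929 on the minus strand for Pcdh9.
Pcdh15: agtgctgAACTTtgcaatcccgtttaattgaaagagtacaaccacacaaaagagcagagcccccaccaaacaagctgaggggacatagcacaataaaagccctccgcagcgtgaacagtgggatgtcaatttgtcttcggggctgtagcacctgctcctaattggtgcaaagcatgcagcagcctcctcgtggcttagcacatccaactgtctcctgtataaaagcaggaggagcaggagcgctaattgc
Pcdh7: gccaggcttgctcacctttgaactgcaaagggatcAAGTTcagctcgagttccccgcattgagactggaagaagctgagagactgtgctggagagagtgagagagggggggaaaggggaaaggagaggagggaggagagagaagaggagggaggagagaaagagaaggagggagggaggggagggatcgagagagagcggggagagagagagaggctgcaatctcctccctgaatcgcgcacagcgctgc
Pcdh18: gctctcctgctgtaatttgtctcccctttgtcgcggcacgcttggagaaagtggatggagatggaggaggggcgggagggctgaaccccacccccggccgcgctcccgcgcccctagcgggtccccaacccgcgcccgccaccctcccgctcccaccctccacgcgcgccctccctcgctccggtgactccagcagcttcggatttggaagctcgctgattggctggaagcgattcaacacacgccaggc
Pcdh9: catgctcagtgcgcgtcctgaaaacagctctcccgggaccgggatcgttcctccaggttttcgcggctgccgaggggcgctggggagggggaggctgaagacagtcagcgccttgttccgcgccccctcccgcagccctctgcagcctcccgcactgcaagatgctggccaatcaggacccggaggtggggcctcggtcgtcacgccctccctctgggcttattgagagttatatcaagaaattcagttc
The Pcdh15 and Pcdh7 sequences each hold 1 match, and those of Pcdh18 and Pcdh9 hold none. Of the other 5 sequences, those of Pcdh10, Pcdh19 and Pcdh20 hold 1 match each and those of Pcdh8 and Pcdh17 hold 0. The 5 members with a match thus had log2 enrichments of 0.0066 to 0.75, all above those of the 4 without one, which were -0.39 to -0.06. This order was noticed after the values were seen and was not tested. Across the 14683 promoters of the sequence table that could be joined to a window by symbol, 33.5% held at least 1 match in the same 250 bases. Over these promoters the order was the other way, with a median log2 enrichment of 0.03 with a match (4916 windows) and 0.05 without one (9767 windows). A match is a description of the letters only, and where the authors' windows lie around the start is not given in the sources used here.

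Enrichment was read on the authors' deposited log2 scale, in which ST18 reads are scaled to input and a pseudocount of 16 reads is added to both. The pseudocount pulls low counts towards 0. All promoters together held 438960 ST18 reads and 160443 input reads, a ratio of 2.74, and every fold given for a window or group is its own ratio divided by this. The authors' scale of 0.406 is larger than the 0.366 that would equalise these totals, so a log2 value of 0 lies below 1-fold. Pcdh10, for instance, had a log2 value of 0.0066 at 0.914-fold. With pseudocount and scale together, a log2 value of 0.58 at the median input of 7 reads needs a ratio of ST18 to input reads 2.37 times that of all promoters. The exact (Clopper-Pearson) 95% intervals cover counting error only. Over all windows the spread of the reads was 1.33 times the variance that counting gives, so these intervals are somewhat narrow. In the protocadherin windows the median was 15 ST18 reads (range 4 to 45) and 6 input reads (range 1 to 15), against 20 and 7 over all windows.

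Few protocadherin windows stood out. In ST18 reads, 3 of 71 reached a log2 enrichment of 0.58, against 1.15% of all windows: Pcdh15, Pcdhac2 and Pcdha4-g. None of the 71 lay at -0.58 or lower, against 0.219% of all windows. The pseudocount limits this call: at the protocadherin median of 6 input reads, a window without any ST18 reads would not reach -0.58. The absence of such windows thus says little about depletion. By the second criterion, an exact interval that leaves out 1, 4 windows were higher in ST18 reads (5.63%, against 2.37% of all windows) and 5 lower (7.04%, against 3.24%). Those higher were Pcdh15, Pcdhac2, Pcdha4-g and Pcdha4, and those lower were Pcdhb22, Pcdhb12, Pcdhb3, Pcdhb17 and Pcdh9. A two-sided exact binomial test per window, adjusted by the Benjamini-Hochberg method over all windows, called 0 of the 71 in either direction, against 0.0366% of all windows higher and 0.00914% lower. The lowest adjusted p among them was 0.263, for Pcdh15, and 8 of 71 had an unadjusted exact p under 0.05 (11.3%, against 6.88% of all windows). That test compares the reads of both deposited columns and not the conditions, since no replicate was available.

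**Figure D1:**
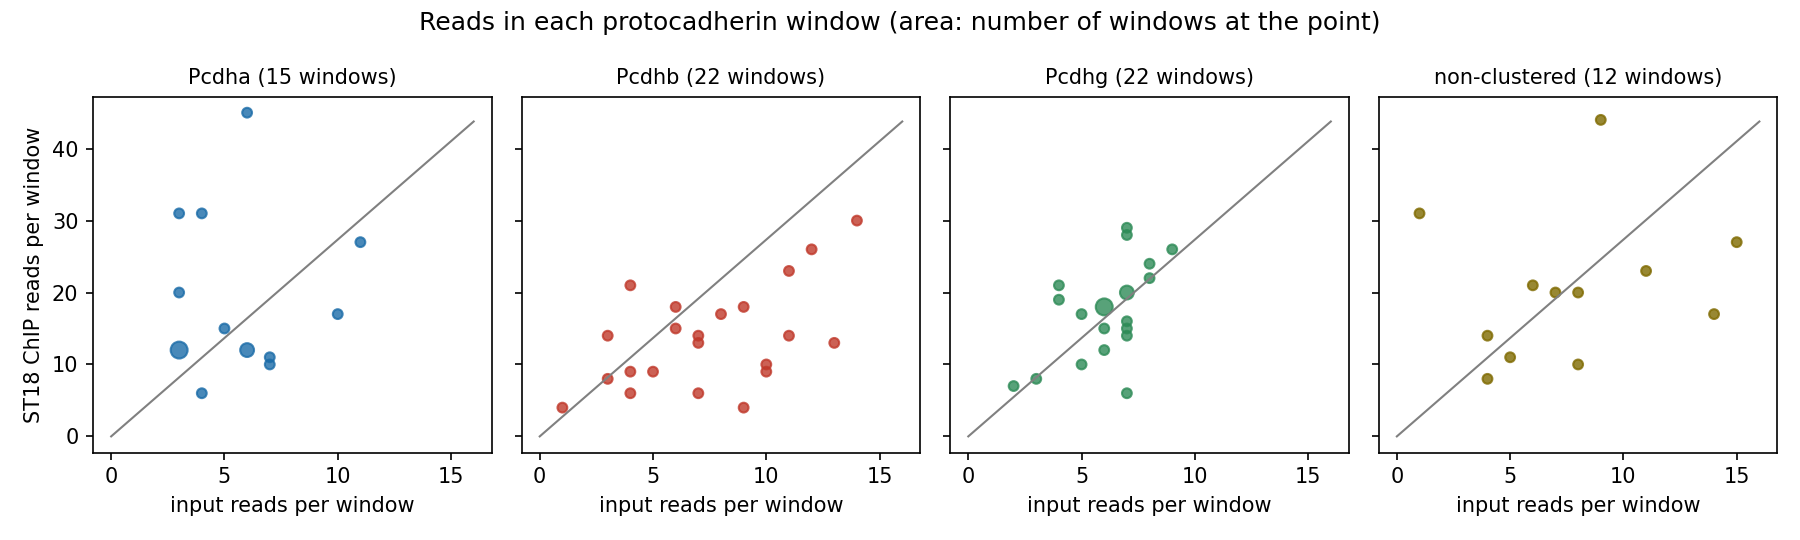
ST18 ChIP reads (vertical) against input reads (horizontal) in each of the 71 protocadherin windows, by group. Point area gives the number of windows at a point, and the line is the ratio of all promoters, 2.74. Pcdhb points lie mostly below the line, Pcdhg points lie along it, and Pcdha and non-clustered points lie on both sides.

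Of the 4 groups, the beta cluster was the one that departed from the other promoters, towards fewer ST18 reads. Its 22 windows held 301 ST18 reads against 164 input reads, which is 0.671-fold the all-promoter ratio (0.553 to 0.816). Widened for the spread over all windows, the interval was 0.539 to 0.835. The median log2 enrichment was -0.09, against 0.04 over all windows, and 18 of the 22 lay below that value. No single window carried this: leaving out each window in turn gave between 0.640-fold (without Pcdhb20) and 0.7004-fold (without Pcdhb22). Of the 22 windows, 4 had an interval below 1. Leaving out several windows at once was not tried, so how far these 4 together carry the group value was not tested. In table order, the first 11 windows (Pcdhb1 to Pcdhb11) stood at 0.661-fold (0.498 to 0.883) and the last 11 (Pcdhb12 to Pcdhb22) at 0.680-fold (0.520 to 0.894).

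Proteins of the beta genes lack the constant tail that alpha proteins and gamma proteins each have. The lowest was Pcdhb22, the last gene of the cluster, with 4 ST18 reads against 9 input reads (log2 -0.50, 0.162-fold, 0.0366 to 0.582). It was followed by Pcdhb12 with 13 against 13 reads (log2 -0.45, 0.366-fold, 0.156 to 0.856) and Pcdhb3 with 9 against 10 reads (log2 -0.40, 0.329-fold, 0.118 to 0.901). These windows thus held about as many input as ST18 reads, or more, in a table where ST18 reads outnumber input reads. Pcdhb17, with 10 against 10 reads (log2 -0.37, 0.366-fold, 0.137 to 0.978), is named because its interval also lay below 1, after its values were seen. At the other end were Pcdhb20 with 21 against 4 reads (log2 0.29, 1.92-fold, 0.647 to 7.69), Pcdhb6 with 14 against 3 reads (log2 0.19) and Pcdhb16 with 18 against 6 reads (log2 0.08). No beta window lay above 1 by its interval. The remaining 15 beta windows ranged from log2 -0.32 to 0.05. None of the beta windows passed adjustment over all windows (exact binomial test, lowest adjusted p = 0.322).

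**Figure D2:**
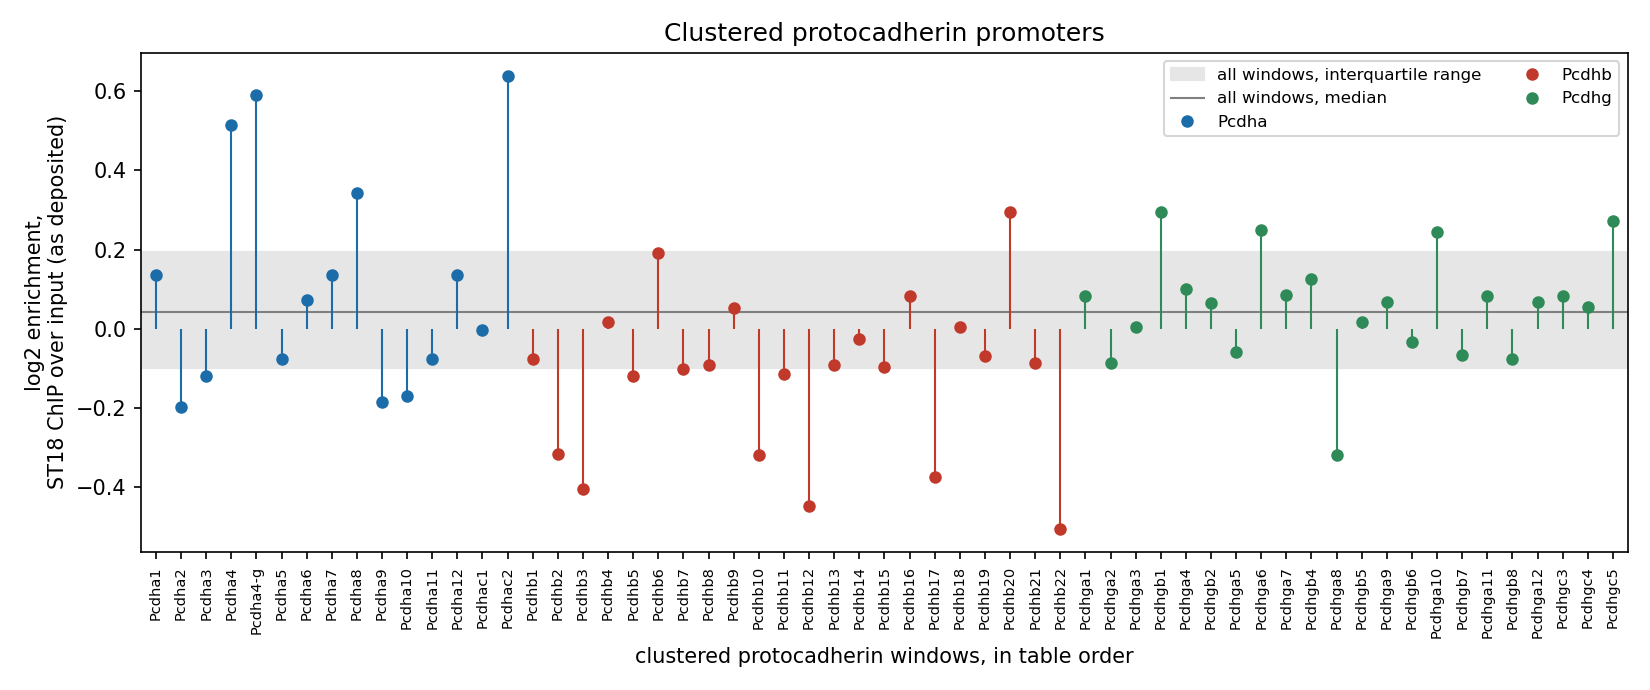
Deposited log2 enrichment of ST18 ChIP over input (vertical) for the 59 clustered windows in table order (horizontal), coloured by cluster. The grey band is the interquartile range of all windows (-0.10 to 0.19) and the grey line their median (0.04). Of the 22 Pcdhb windows, 18 lie below the line, while Pcdhac2 (0.64), Pcdha4-g (0.59) and Pcdha4 (0.51) are the highest points.

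The alpha cluster ran the other way in a few windows only. Its 15 windows held 273 ST18 reads against 81 input reads, 1.23-fold the all-promoter ratio (0.958 to 1.60), and 8 of 15 lay above the median of all windows. The excess lay in Pcdhac2, the second C-type isoform, with 45 against 6 reads (log2 0.64, 2.74-fold, 1.17 to 7.86), and at the start of Pcdha4. Pcdha4 held 31 against 4 reads (log2 0.51, 2.83-fold, 1.0015 to 11.05), and Pcdha4-g held 31 against 3 reads (log2 0.59, 3.78-fold, 1.18 to 19.3). Pcdha4-g has its annotated start under 1 window width from that of Pcdha4, so both windows may count the same reads. Their overlap was not measured. No other pair of neighbouring clustered starts lay that close. Without Pcdha4-g the cluster stood at 1.13-fold (0.875 to 1.48). Leaving out Pcdha9 instead gave 1.32-fold, with an interval of 1.01 to 1.74 that leaves out 1. The lowest alpha windows were Pcdha2 with 10 against 7 reads (log2 -0.20, 0.522-fold, 0.179 to 1.62), Pcdha9 with 17 against 10 (log2 -0.18) and Pcdha10 with 11 against 7 (log2 -0.17), all of them alternate isoforms chosen by single neurons. Their intervals and those of the remaining 9 alpha windows, which ranged from log2 -0.12 to 0.34, included 1.

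The gamma cluster did not depart from the other promoters and was the most even. Its 22 windows held 383 ST18 reads against 134 input reads, 1.04-fold the all-promoter ratio (0.856 to 1.28), and 14 of 22 lay above the median of all windows. The SD of their log2 enrichment was 0.139, against 0.225 over all windows, and the spread of their reads was 0.541 times the variance that counting gives. The A-type isoforms stood at 1.01-fold (12 windows, 0.777 to 1.31) and the B-type at 1.04-fold (7 windows, 0.688 to 1.61). The highest were Pcdhgb1 with 21 against 4 reads (log2 0.29, 1.92-fold, 0.647 to 7.69), Pcdhgc5 with 29 against 7 (log2 0.27) and Pcdhga6 with 28 against 7 (log2 0.25). The lowest were Pcdhga8 with 6 against 7 reads (log2 -0.32, 0.313-fold, 0.0870 to 1.09), Pcdhga2 with 14 against 7 (log2 -0.09) and Pcdhgb8 with 12 against 6 (log2 -0.08). Every gamma window's interval included 1, and Pcdhga8 was the only one under log2 -0.10.

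The 5 C-type isoforms of the alpha and gamma clusters are the members used most broadly across neurons. Besides Pcdhac2 and Pcdhgc5, they are Pcdhac1 with 27 ST18 reads against 11 input reads (log2 -0.0027), Pcdhgc3, which is needed for dendrite branching in the mouse cortex, with 18 against 6 (log2 0.08), and Pcdhgc4, needed for survival of neurons in the mouse, with 22 against 8 (log2 0.05). Together they held 141 against 38 reads, 1.36-fold the all-promoter ratio (0.942 to 1.995). Over the 13 alternate alpha windows their ratio was 1.18-fold (0.733 to 1.92), so no difference was detectable at this depth.

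Set against each other, the beta cluster was lower than both of its neighbours. Its ratio of ST18 to input reads was 0.545-fold that of the alpha cluster (exact conditional 95% interval 0.393 to 0.752) and 0.642-fold that of the gamma cluster (0.484 to 0.852). Alpha over gamma was 1.18-fold (0.850 to 1.64), which includes 1. Against the 465 windows of chromosome 18 that are not protocadherins, which held 0.991-fold the ratio of all promoters (0.954 to 1.03), the beta cluster stood at 0.677-fold (0.556 to 0.827), the alpha cluster at 1.24-fold (0.964 to 1.62) and the gamma cluster at 1.05-fold (0.861 to 1.30). In all, 15 such ratios of groups were computed, with no p-value for any, since the members were chosen with earlier results of these data known.

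Beta windows held fewer reads than windows over the whole table. The median number of reads in both columns was 20.5 in beta windows, against 18 in alpha, 23.5 in gamma and 28 over all windows, and the median of input reads alone was 7 in beta windows, as over all windows. Base composition moved with enrichment across the table: with the promoters joined by symbol divided into 4 groups at the quartiles of the GC share of their 250 upstream bases, the ratio was 1.06-fold in the highest group (3548 windows) and 0.913-fold in the lowest (3686 windows). The GC share of the clustered promoters was not analysed here, and the part of depth and of base composition in the result was not tested. Beta genes are close paralogs, and how reads that match several copies were treated is not given in the sources used here.

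**Figure D3:**
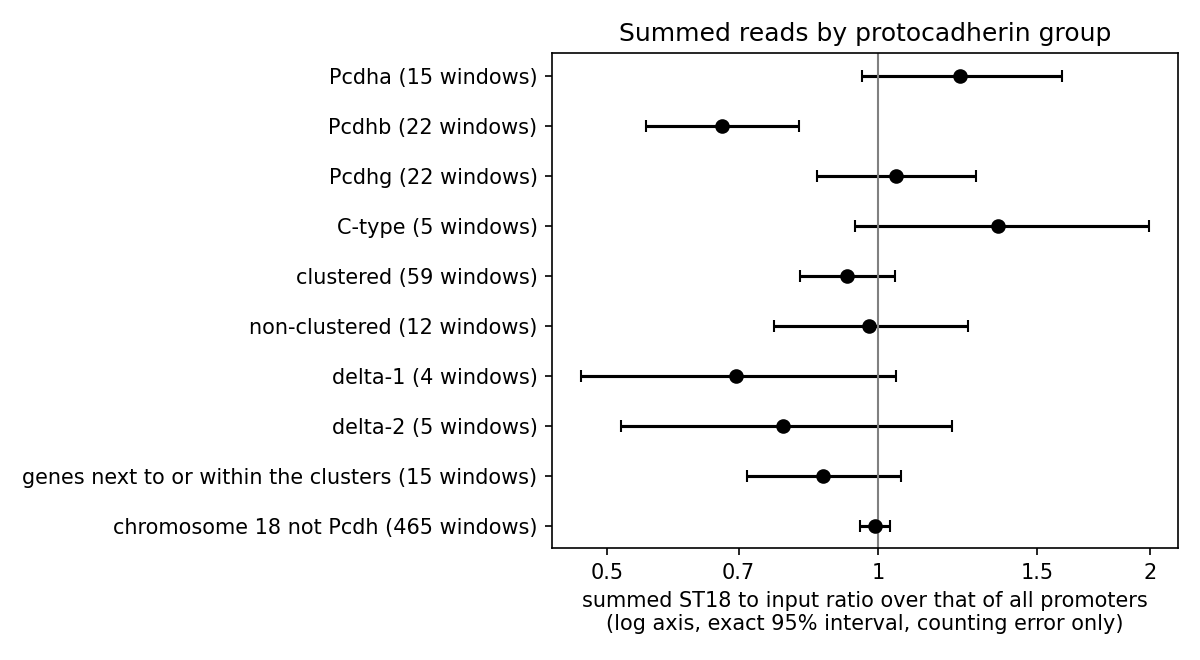
Summed ST18 to input ratio of each group over that of all promoters (horizontal, log axis), with exact 95% intervals for counting error only. Pcdhb, at 0.671, has an interval below 1, and the intervals of the other groups drawn include 1. The 3 non-clustered members outside the delta subfamilies (2.04, 1.21 to 3.65) are not drawn.

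The non-clustered members did not depart from the other promoters as a group. Their 12 windows held 246 ST18 reads against 92 input reads, 0.977-fold the all-promoter ratio (0.766 to 1.26), with a median log2 enrichment of -0.02. The spread of their reads was 2.08 times the variance that counting gives, against 1.33 over all windows. This spread includes Pcdh15 and was not computed without that window, so it is not read as a trait of the group. Clustered windows together held 957 against 379 reads, 0.923-fold (0.819 to 1.04), and the ratio of clustered over non-clustered windows was 0.944-fold (0.714 to 1.24), so the whole clustered set could not be told from the non-clustered one at this depth. The beta cluster alone was 0.686-fold the non-clustered windows (0.499 to 0.942, widened 0.482 to 0.977). The non-clustered sum includes Pcdh15 with its 1 input read. The ratio of beta to non-clustered windows was not computed without it, so whether its interval would still leave out 1 was not tested. Without Pcdh15 the non-clustered windows stood at 0.864-fold (0.673 to 1.12).

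The highest non-clustered window, and the highest of all 71, was Pcdh15, which encodes a tip-link protein of inner ear hair cells. It held 31 ST18 reads against 1 input read, a log2 enrichment of 0.75. The ratio was 11.3-fold that of all promoters, but with 1 input read the interval ran from 1.89 to 462. The start of this gene lies in a promoter with 6 CpG sites and 50.4% GC in its 250 upstream bases, against medians of 11 and 56.4% over the promoters joined by symbol. Next was Pcdh12, a protocadherin of endothelial cells, with 44 against 9 reads (log2 0.44, 1.79-fold, 0.861 to 4.16). Pcdh20 held 20 against 7 reads (log2 0.07). Only Pcdh15 of these had an interval above 1. Together these 3 members outside the delta subfamilies held 95 against 17 reads, 2.04-fold the all-promoter ratio (1.21 to 3.65, widened 1.13 to 3.70). It was the only non-clustered subgroup whose interval left out 1. The sum includes Pcdh15 with its 1 input read, and it was not computed without that window. The spread of the reads in these 3 windows was 3.08 times the variance that counting gives, more than the 1.33 used for widening. The value is thus not read as a property of the subgroup.

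The delta-1 members, which bind protein phosphatase 1 through their cytoplasmic tail, lay mostly lower. Pcdh9 was the lowest non-clustered window, with 17 ST18 reads against 14 input reads (log2 -0.39, 0.444-fold, 0.206 to 0.973). Pcdh1 held 27 against 15 reads (log2 -0.20), and Pcdh11x, on the X chromosome, 11 against 5 (log2 -0.04). Pcdh7 was the delta-1 member above the median of all windows, with 21 against 6 reads (log2 0.16). Together the 4 delta-1 windows held 76 against 40 reads, 0.694-fold the all-promoter ratio (0.468 to 1.05), an interval that includes 1.

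The delta-2 members include genes that bind the WAVE actin regulators through their tail, among them Pcdh10, Pcdh17 and Pcdh19. Pcdh18 was lowest, with 10 ST18 reads against 8 input reads (log2 -0.26), followed by Pcdh8, known as arcadlin or PAPC, with 23 against 11 (log2 -0.09), and Pcdh17 with 8 against 4 (log2 -0.06). Pcdh10 held 20 against 8 reads (log2 0.01). Pcdh19, an X-linked gene mutated in a human epilepsy, was the highest, with 14 against 4 reads (log2 0.12). All 5 intervals included 1, as did that of their sum, 75 against 35 reads at 0.783-fold (0.518 to 1.21).

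**Figure D4:**
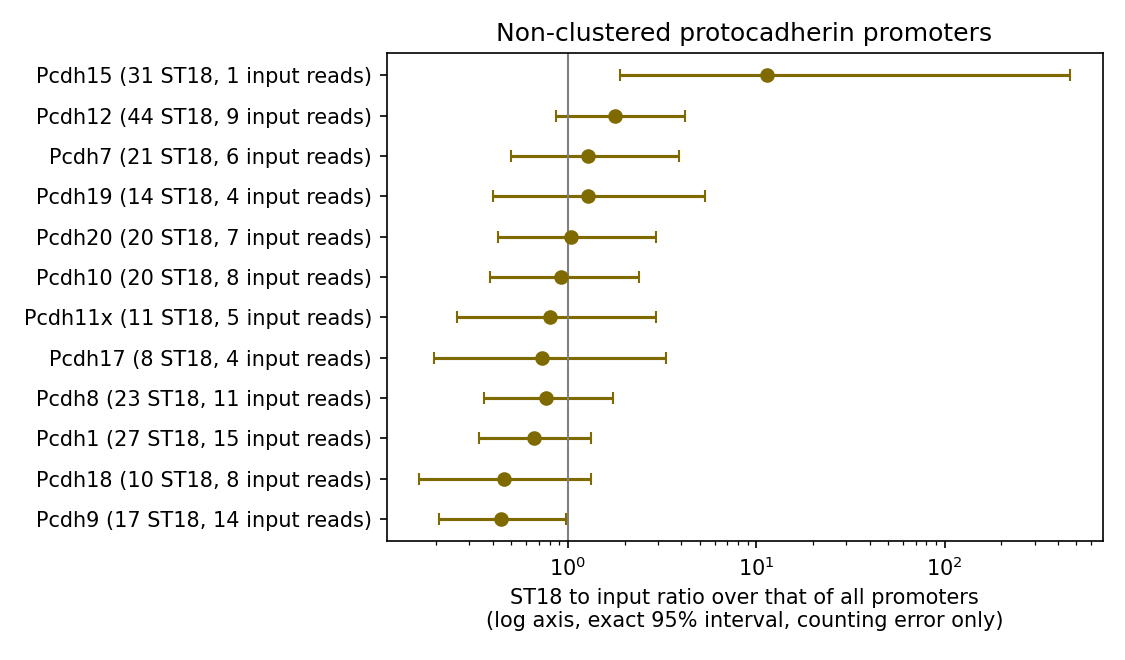
Ratio of ST18 to input reads over that of all promoters (horizontal, log axis) for the 12 non-clustered windows, from highest to lowest log2 enrichment, with exact 95% intervals for counting error only. Pcdh15 (11.3) lies above 1 and Pcdh9 (0.444) below it by their intervals, and the other 10 intervals include 1.

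Taken in sum, genes that act with protocadherins lay near the other promoters. Of 24 listed genes for the architecture and silencing of the clusters, 22 were in the table. None reached log2 0.58 in either direction, against 1.15% of all windows higher and 0.219% lower. Their median was 0.01, and their summed ratio was 0.934-fold (0.785 to 1.11). The highest was Ehmt1, a histone H3K9 methyltransferase, with 47 ST18 reads against 11 input reads (log2 0.38), and Smchd1, which silences the clusters in mouse, held 27 against 6 (log2 0.29). The lowest was Pds5b, a cohesin regulator, with 10 against 12 (log2 -0.48, 0.305-fold, 0.118 to 0.769). Of the cohesin subunits, Rad21 held 14 against 11 reads (log2 -0.32) and Stag1 held 26 against 8 (log2 0.15). Ctcf itself held 15 against 8 reads (log2 -0.12). Of 25 listed adhesion partners and signalling genes, 24 were in the table, with a median of 0.09 and a summed ratio of 1.01-fold (0.859 to 1.19). They ran from Psen2, a subunit of the gamma-secretase that cleaves protocadherins, at 0.46 (35 against 6 reads) to the kinase gene Taok2 at -0.51. Taok2 held 21 against 19 reads (0.404-fold, 0.207 to 0.794), an interval below 1, as was that of Pds5b.

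The remaining comparisons concern relatives and neighbours. The 16 of 17 listed other cadherin-superfamily genes in the table had a median of -0.0044 and a summed ratio of 0.939-fold (0.764 to 1.16), from Cdhr3 at 0.27 to Cdhr2 at -0.18. Genes next to or within the clusters, 15 of 16 listed, had a median of 0.02 and a summed ratio of 0.868-fold (0.715 to 1.06). Among them, the pair that lies between the beta and gamma clusters was Taf7, with 15 ST18 reads against 6 input reads (log2 0.01), and Slc25a2, with 17 against 10 (log2 -0.18). The beta cluster was 0.773-fold the genes of this list (0.584 to 1.02), an interval that includes 1, so a difference from them was not detectable at this depth. The list covers genes next to or within any of the clusters and not the surroundings of the beta cluster alone. In these 3 lists and the neighbours, none of the windows reached log2 0.58 in either direction. Over all windows the shares were 1.15% higher and 0.219% lower, so 0 in lists of this size says little.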

How the data were processed

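The authors deposited read counts per promoter window of 1000 bp, 1 row per gene symbol, in 1 ST18 and 1 input column, and a log2 enrichment. Taking the log2 of (0.406 times ST18 plus 16) over (input plus 16) recomputed the deposited log2 value within 1e-06 in all 21881 windows. The submitters' processing notes name Bowtie, MACS2 2.0.10.20120913 and mm9 without roles. The sources used here do not say whether duplicates were removed or both ChIP samples pooled. The RNA samples and the peak list were not used here.

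Per window and per group, the ratio of counts was divided by that of all promoters, with exact 95% binomial intervals (scipy 1.17.1). The reads carry no molecular identifiers and may be copies of 1 molecule, so intervals cover counting error only. Intervals called widened multiply the variance of the log ratio by 1.33, the spread over all windows. The binomial test and its adjustment were tested on simulated data with counting error only, changing windows drawn from those with more reads. That simulation does not cover the extra spread of the real windows or those with few reads. A planned limma test and fits without each replicate could not be made with 1 column per group. The text names all non-clustered members, the C-type isoforms and the 3 highest and 3 lowest windows of each cluster. Members and lists were chosen with earlier results of these data known. Chromosomes and neighbours come from RefSeq GRCm38.p6, joined by symbol for 21672 windows, and 14683 promoters were joined to sequences. Alternatives tried were other thresholds, pseudocounts, scaling, an input filter, call rules, reference sets and left-out windows.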

Additional observations from a re-analysis of the deposited data

How the results depend on the processing

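Of 78 alternative values, 64 stayed within the main value's interval (for counts, within 1.5 times). For summed ratios among these, whether the interval left out 1 also stayed the same. The values themselves could still cross 0 or 1, as the alpha and clustered medians given below did. The 3 windows at log2 0.58 became 0 at a threshold of 1, 6 at 0.32, 0 under the adjusted binomial test, 5 with a pseudocount of 8, 12 with a pseudocount of 1, 1 when scaled to promoter totals and 1 among windows with over 5 input reads. The 0 windows at -0.58 became 5 at 0.32, 5 by exact intervals, 3 with a pseudocount of 8 and 10 with a pseudocount of 1. The shares of all windows moved too. Higher were 8.45% of protocadherins against 10.9% of all windows at 0.32, 7.04% against 6.98% with a pseudocount of 8, 16.9% against 24.1% with a pseudocount of 1, 1.41% against 0.608% when scaled and 2.17% against 0.332% under the input filter. Lower were 7.04% of protocadherins against 4.61% of all windows at 0.32, 4.23% against 2.60% with a pseudocount of 8 and 14.1% against 13.1% with a pseudocount of 1. The gamma median of 0.07 became 0.11 with a pseudocount of 8 and 0.20 with a pseudocount of 1. Under the input filter the alpha median of 0.07 became -0.08 and the clustered median of 0.0054 became -0.08, and when scaled the clustered median was -0.03. The alpha ratio of 1.23 became 1.32, with an interval above 1, without Pcdha9. What lies behind these changes was not tested. The beta ratio over all promoters stayed between 0.640 and 0.7004 with 1 window left out, the input filter or another broad reference. Over the neighbouring genes it was 0.773 (0.584 to 1.02). Alternatives without Pcdha4-g, with 1 window left out or with chromosome 18 as the reference were chosen after seeing the data. No paired analysis was possible because the table has 1 ST18 column without a replicate number, and fits without each replicate were not run for the same reason. With a median of 6 input reads, single windows resolve only several-fold differences.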
